A study of Mus musculus with 6 samples.

Results

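The aldehyde dehydrogenases are a superfamily of enzymes, encoded by *Aldh* genes, most of which use NAD(P)+ to oxidize aldehydes to carboxylic acids. Some act on reactive aldehydes from lipid peroxidation or alcohol, and some make retinoic acid from retinaldehyde. Others act in the breakdown or synthesis of amino acids, of carnitine or of complex lipids. The enzymes work in mitochondria, cytosol or endoplasmic reticulum, and among blood-forming cells the family is best known for the enzyme activity by which stem cells are identified. Expression of 10 of these genes, given by symbol (*Aldh3b1*, *Aldh7a1*, *Aldh1a1*, *Aldh1b1*, *Aldh2*, *Aldh3a2*, *Aldh4a1*, *Aldh6a1*, *Aldh9a1* and *Aldh18a1*), was examined among 19752 genes tested. Each of the 10 had a single row in the annotated array table, so the choice of the brightest row per gene, by mean over all 6 arrays, decided nothing for them.

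The study compared mature Vα2hi CD24lo CD4 SP thymocytes sorted from mice with the OT-II TCR transgene, which both genotypes carried, on 6 microarrays. The 3 dKO samples (genotype Jmd3f/f-utxf/f in the records) lacked the H3K27 demethylases Jmjd3 and Utx through *Cd4*-driven Cre, which removes the floxed *Kdm6b* and *Kdm6a* exons for the catalytic domain from the DP stage on. The 3 samples recorded as wild-type are described in the methods as Cre-negative littermates whose floxed alleles stayed intact, and mice were female unless noted otherwise. The sample records state neither age nor pooling of animals, though the methods give an age range in weeks for mice of the study as a whole. The records call the samples biological replicates without naming separate mice. The p-values therefore speak only of spread among these arrays, which may be technical. Values are log2 intensities, background-corrected and evened out between arrays by the authors.

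Array medians lay between 6.27 and 6.32, and arrays correlated at 0.998 to 0.999 within and 0.991 to 0.993 between genotypes over genes. *Kdm6a* had log2 values of 10.16, 10.11 and 10.20 in wild-type and 9.48, 9.40 and 9.58 in dKO cells, and *Kdm6b* values of 9.83, 9.90 and 9.97 against 9.71, 9.85 and 9.86. The difference passed the test for *Kdm6a* (adjusted p = 2.6e-05), whose groups did not overlap, but not for *Kdm6b* (adjusted p = 0.32). Each value pools probes along the transcript and does not isolate the deleted exons. The defining markers *Cd3e* (13.06 and 13.07 in wild-type and dKO cells) and *Cd4* (12.21 and 12.30) were bright in both genotypes. Of 8 measured T-cell markers, *Thy1* and *Cd5* were lower in dKO cells.

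*Aldh7a1* and *Aldh3b1* were each more than 2-fold above their wild-type level in dKO cells, and another 6 members rose by smaller steps. In all, 8 of the 10 members were higher at an adjusted p under 0.05 by limma's moderated test, against 13.1% of all genes and 23.2% of the brighter 50% of genes. No member was lower, against 1976 of the 19752 genes. At an unadjusted p under 0.05, and by Student's t-test, the number lower was also 0. The median log2 fold change of the members was 0.33 and that of all genes 0.0057. A rise of 2-fold or more was called for 2 members and for 0.223% of all genes. For 8 members every dKO array lay above every wild-type array, as for 21.3% of all genes. The members were picked by name with results of these arrays in view, so these counts describe them and support nothing further. In bulk RNA, more cells with a transcript and more transcript per cell cannot be told apart.

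**Figure D1:**
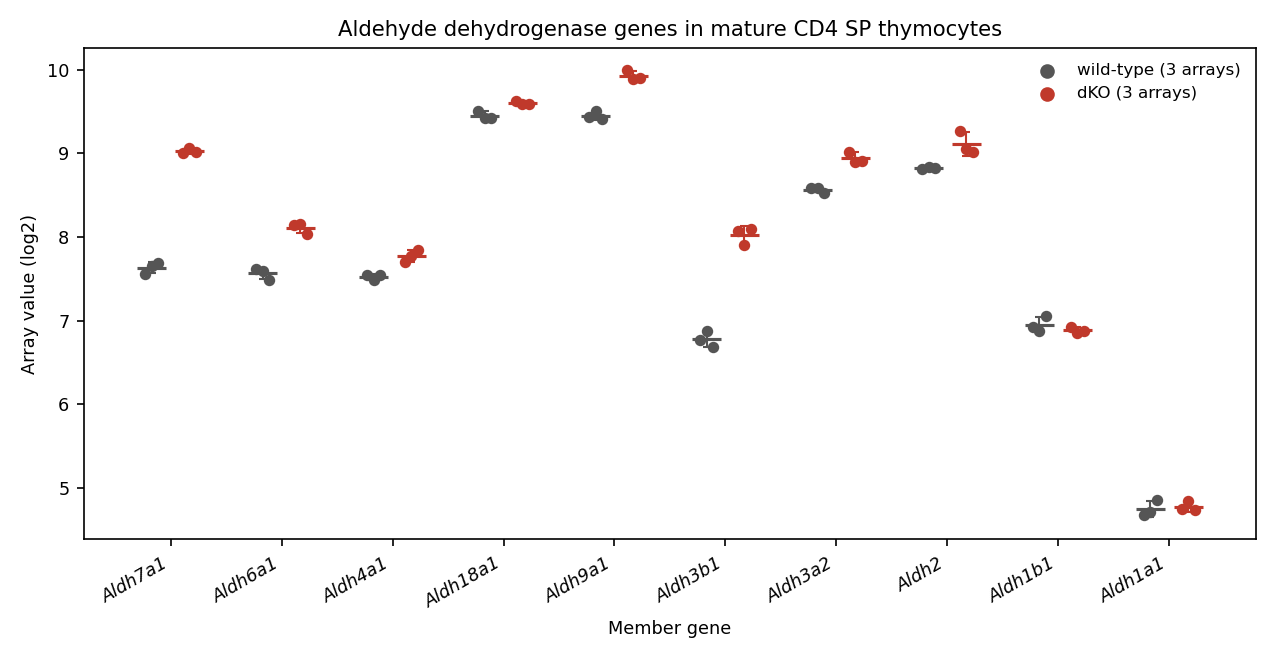
Log2 array values (vertical axis) of the 10 members (horizontal axis), grey for the 3 wild-type and red for the 3 dKO arrays, with the mean and SD of each genotype. Values compare genotypes within a gene, since probes of different genes are not on a shared scale. For 8 members all dKO points lie above all wild-type points, with the widest gaps at *Aldh7a1* (9.03 against 7.64) and *Aldh3b1* (8.02 against 6.77).

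Promoter windows of 8 of the 10 members were examined, with 10 windows in all (RefSeq, GRCm38.p6, from 250 bases before to 50 bases after an annotated start). None was examined for *Aldh7a1*, the member with the largest rise, or for *Aldh2*, so counts over the member windows leave both out. A filter by chromosome was applied to the member windows and not to the windows of all genes. Those of *Aldh3b1*, *Aldh6a1* (the upstream start), *Aldh9a1* and *Aldh3a2* are shown because these members, with *Aldh7a1*, had the largest rises. Sequences run 5′ to 3′ along the gene. Capitals mark matches to the GC box GGGCGG and the CCAAT box CCAAT, each searched on both strands (CCGCCC and ATTGG in reverse).
Aldh3b1, chr19:3929729-3930028, minus strand: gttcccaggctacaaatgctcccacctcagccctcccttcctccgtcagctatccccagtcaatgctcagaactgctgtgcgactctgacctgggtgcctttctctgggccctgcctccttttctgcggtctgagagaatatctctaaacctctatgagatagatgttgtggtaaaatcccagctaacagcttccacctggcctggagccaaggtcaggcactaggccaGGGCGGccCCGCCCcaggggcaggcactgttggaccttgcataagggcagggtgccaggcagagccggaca
Aldh6a1, chr12:84450975-84451274, minus strand: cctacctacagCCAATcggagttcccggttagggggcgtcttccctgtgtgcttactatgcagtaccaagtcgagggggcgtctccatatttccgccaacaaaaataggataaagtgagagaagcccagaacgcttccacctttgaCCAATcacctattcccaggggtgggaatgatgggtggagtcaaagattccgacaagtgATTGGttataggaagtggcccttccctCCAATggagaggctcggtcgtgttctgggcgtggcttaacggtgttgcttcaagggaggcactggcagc
Aldh9a1, chr1:167349741-167350040, plus strand: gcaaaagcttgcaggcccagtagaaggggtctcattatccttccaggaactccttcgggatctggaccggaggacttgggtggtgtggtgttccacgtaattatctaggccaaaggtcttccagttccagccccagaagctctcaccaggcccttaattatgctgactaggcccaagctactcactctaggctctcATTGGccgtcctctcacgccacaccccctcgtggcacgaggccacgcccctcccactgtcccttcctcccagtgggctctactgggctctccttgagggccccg
Aldh3a2, chr11:61267137-61267436, minus strand: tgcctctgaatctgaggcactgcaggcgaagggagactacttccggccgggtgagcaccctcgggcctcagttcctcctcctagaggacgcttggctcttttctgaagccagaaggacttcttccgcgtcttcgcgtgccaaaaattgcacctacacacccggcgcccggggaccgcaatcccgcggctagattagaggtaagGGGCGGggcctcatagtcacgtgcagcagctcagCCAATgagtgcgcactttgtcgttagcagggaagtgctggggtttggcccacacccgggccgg

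The windows did not share a layout. The *Aldh3b1* window held 2 GC boxes on opposite strands near the start and no CCAAT box, whereas that of *Aldh6a1* held 4 CCAAT boxes and no GC box. The *Aldh9a1* window held 1 CCAAT box, and the *Aldh3a2* window held 1 of each. Over the member windows, 4 of 10 held a GC box and 7 of 10 a CCAAT box, against 35.7% and 37.4% of all 32851 windows of the same length. CG dinucleotides numbered 6 at *Aldh3b1*, 12 at *Aldh6a1*, 9 at *Aldh9a1* and 21 at *Aldh3a2*, against a median of 7 over all windows. The antioxidant response element core TGACNNNGC, searched on both strands, matched once among the member windows, at *Aldh9a1*, and is found in 12.4% of all windows. The CACCC box (CACCC) and a forkhead motif (GTAAACA) were searched in the same way, and are found in 57.5% and 3.65% of all windows. The CACCC box matched most member windows and the forkhead motif matched none. Matches of different motifs were counted separately even where they overlapped. These matches are a description of letters and not of bound sites.

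Among members that act in amino acid metabolism, *Aldh7a1* had the largest rise. It encodes α-aminoadipic semialdehyde dehydrogenase (antiquitin), an enzyme of lysine breakdown that also oxidizes betaine aldehyde. Its log2 values were 7.56, 7.65 and 7.69 on the wild-type and 9.0, 9.06 and 9.02 on the dKO arrays. The lowest dKO value stood well above the highest wild-type value. The log2 fold change was 1.39, with a standard error (SE) of 0.05 and an adjusted p of 1.0e-07 from limma, or 2.63-fold. This placed *Aldh7a1* at rank 15 of 19752 genes by increase.

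*Aldh6a1* encodes methylmalonate semialdehyde dehydrogenase, a mitochondrial enzyme of valine and thymine breakdown. Its log2 values were 7.61, 7.59 and 7.49 in wild-type and 8.14, 8.15 and 8.04 in dKO cells. The genotypes were parted on every array, and the log2 fold change was 0.54 (SE 0.05, adjusted p = 6.6e-05), or 1.46-fold.

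*Aldh4a1* and *Aldh18a1* stand on opposite sides of proline metabolism. The former encodes the dehydrogenase that turns pyrroline-5-carboxylate from proline into glutamate, and the latter the synthase that makes pyrroline-5-carboxylate from glutamate. *Aldh4a1* had log2 values of 7.54, 7.49 and 7.54 in wild-type and 7.70, 7.77 and 7.84 in dKO cells (log2 fold change 0.25, SE 0.05, adjusted p = 0.0063). *Aldh18a1* had log2 values of 9.51, 9.42 and 9.42 against 9.62, 9.59 and 9.59 (log2 fold change 0.15, SE 0.05, adjusted p = 0.0457). Neither gene's groups overlapped, but the gap at *Aldh18a1* was narrow, and its call held in only 6 of 15 alternative settings, with adjusted p between 0.024 and 0.16.

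*Aldh9a1* encodes the dehydrogenase for trimethylaminobutyraldehyde, a step of carnitine synthesis. It had log2 values of 9.43, 9.51 and 9.41 in wild-type and 9.99, 9.89 and 9.90 in dKO cells. All dKO arrays were higher, by a log2 fold change of 0.48 (SE 0.05, adjusted p = 1.2e-04), or 1.39-fold.

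*Aldh3b1* and *Aldh3a2* encode enzymes that oxidize fatty aldehydes. *Aldh3b1*, whose product acts on medium- and long-chain aldehydes from lipid oxidation, had log2 values of 6.77, 6.87 and 6.68 in wild-type and 8.07, 7.90 and 8.09 in dKO cells. Wild-type values lay only a little above the array medians and dKO values below the third quartile of the arrays (8.51 to 8.59). The log2 fold change was 1.24 (SE 0.07, adjusted p = 1.3e-06), or 2.37-fold, at rank 23 by increase.

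*Aldh3a2* encodes the fatty aldehyde dehydrogenase of the endoplasmic reticulum, which takes up the hexadecenal released when sphingosine-1-phosphate is cleaved. Its log2 values were 8.58, 8.58 and 8.53 in wild-type and 9.02, 8.89 and 8.91 in dKO cells. The groups did not overlap, with a log2 fold change of 0.37 (SE 0.05, adjusted p = 5.1e-04), or 1.30-fold.

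*Aldh2* encodes the mitochondrial enzyme best known for clearing acetaldehyde. It had log2 values of 8.81, 8.84 and 8.82 in wild-type and 9.27, 9.05 and 9.01 in dKO cells. The wild-type arrays were nearly equal, and dKO replicate 1 stood above the other dKO arrays. The log2 fold change was 0.28 (SE 0.07, adjusted p = 0.012). It came to 0.20 when dKO replicate 1 was left out, where adjusted p was 0.021. Student's t-test did not call it (adjusted p = 0.11).

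Myeloid markers were examined beside these values, since several *Aldh* genes are also expressed outside T-cells. The myeloid marker *Lyz2* had log2 values of 5.35, 5.43 and 5.03 in wild-type and 6.75, 6.02 and 5.48 in dKO cells, and *Cd74* values of 6.83, 6.62 and 6.22 against 7.73, 7.04 and 6.36. Both were highest in dKO replicate 1, as were *Aldh2*, *Aldh3a2*, *Aldh9a1* and *Aldh18a1* among the members. Of 16 myeloid and dendritic markers, 1 was higher (*Lyz2*, log2 fold change 0.81, adjusted p = 0.043, a call lost in 8 of 14 alternative settings) and 2 were lower (*Itgam* and *Cd68*), and 3 had wild-type means below the first quartile of every array (4.97 to 5.01). Summed on a linear scale, the list ranged from 789 to 866 in wild-type and from 781 to 1111 in dKO cells, so the genotypes overlapped. Sums of 7 B cell markers (334 to 349 against 283 to 288) and of 12 markers of thymic epithelium and stroma (2079 to 2126 against 1668 to 1754) were lower in dKO cells. Mostly 1 bright gene in each list carried this, *Cd79b* (means of 7.14 and 6.51) and *Pecam1* (10.24 and 9.73). No other B cell marker passed the test, and of the rest of the stromal list *Ccl25* was lower and *Epcam* higher. Without dKO replicate 1, 7 members were called higher by limma, the exception being *Aldh18a1* (adjusted p = 0.11). *Lyz2* in the other dKO arrays (6.02 and 5.48) was also above every wild-type array. Leaving out dKO replicate 1 therefore cannot decide on the part of other cell types. The part of other cell types in these rises was not tested.

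The members with roles in making retinoic acid did not pass the test. *Aldh1b1* encodes a mitochondrial enzyme for acetaldehyde and retinaldehyde. Its log2 values of 6.92, 6.87 and 7.05 in wild-type and 6.92, 6.85 and 6.88 in dKO cells overlapped (log2 fold change -0.06, 95% confidence interval -0.19 to 0.07, adjusted p = 0.54). *Aldh1a1*, which encodes a retinaldehyde dehydrogenase, had log2 values of 4.67, 4.71 and 4.85 against 4.75, 4.84 and 4.73 (log2 fold change 0.03, interval -0.10 to 0.16, adjusted p = 0.79). Its mean of 4.74 in wild-type cells lay below the first quartile of every array.

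**Figure D2:**
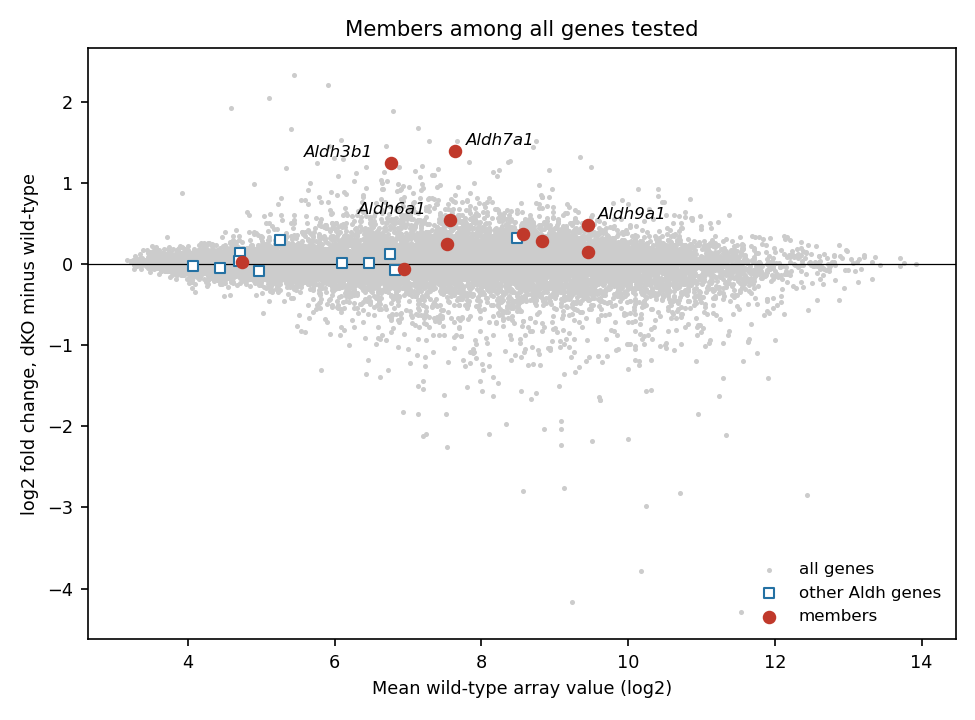
Log2 fold change (dKO minus wild-type, vertical axis) against mean wild-type log2 value (horizontal axis) for all 19752 genes (grey), the 10 members (red) and the other 11 *Aldh* genes (blue squares). *Aldh7a1* (1.39) and *Aldh3b1* (1.24) lie at the upper edge of the cloud, and the dim *Aldh1a1* lies near 0.

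Among the other 11 *Aldh* genes of the arrays, 2 were higher in dKO cells (18.2%, near the 13.1% of all genes) and 9 did not pass the test, with 0 lower by limma, at an unadjusted p under 0.05 and by Student's t-test, and a median log2 fold change of 0.01. *Aldh5a1*, which encodes the succinic semialdehyde dehydrogenase of GABA breakdown, had log2 values of 5.25, 5.32 and 5.22 in wild-type and 5.56, 5.62 and 5.51 in dKO cells (log2 fold change 0.30, adjusted p = 0.002), without overlap though both means were below the array medians. *Aldh3b3*, a close relative of *Aldh3b1*, had log2 values of 8.35, 8.55 and 8.55 against 8.75, 8.78 and 8.87 on its brightest row (log2 fold change 0.32, adjusted p = 0.0055).

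The rows of *Aldh3b3* differed. One more row passed the test (log2 fold change 0.25, adjusted p = 0.011 over all rows), as did the mean of its rows (0.17, adjusted p = 0.03), while another row was at -0.07 (adjusted p = 0.33) and a row annotated to both *Aldh3b2* and *Aldh3b3* at -0.01 (adjusted p = 0.91), so these paralogs cannot be told apart with certainty. On the row of *Aldh3b2* alone it was 0.12, at an adjusted p of 0.21.

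For the 9 genes not past the threshold, log2 fold changes lay between -0.08 and 0.13, with 95% confidence intervals inside -0.21 to 0.27. These are *Aldh3b2*, the retinaldehyde dehydrogenase genes *Aldh1a2* (-0.02) and *Aldh1a3* (0.01), the folate enzyme genes *Aldh1l1* (0.01) and *Aldh1l2* (0.04), and *Aldh1a7* (0.13), *Aldh3a1* (-0.08), *Aldh8a1* (-0.05) and *Aldh16a1* (-0.07). Wild-type means of 4 of the 11 genes were below the first quartile of every array. Signs of these small values are not stable, as *Aldh1a2*, *Aldh1a3* and *Aldh1l1* each changed sign when some single arrays were left out, and so did *Aldh1a1*.

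**Figure D3:**
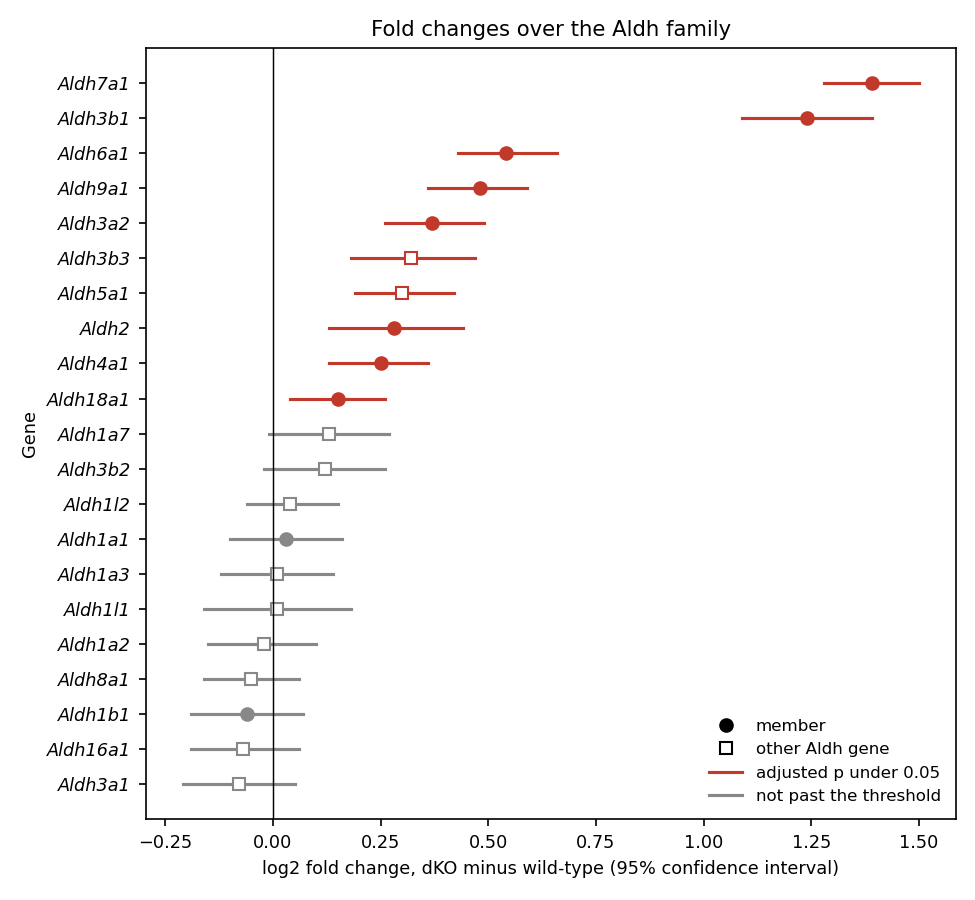
Log2 fold change (dKO minus wild-type, horizontal axis) with its 95% confidence interval for the 21 *Aldh* genes (vertical axis), circles for the 10 members and squares for the others, red where the adjusted p is under 0.05. *Aldh7a1* and *Aldh3b1* stand apart from the 8 other red genes, which lie between 0.15 and 0.54.

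To set the members beside the pathways they serve, 6 lists of other genes were described by counts and medians, to be read beside the 13.1% of all genes called higher and the 23.1% called in either direction. Within the brighter 50% of genes, which held 26 of the 27 measured genes of branched-chain amino acid breakdown, 23.2% were called higher. Branched-chain amino acid breakdown, to which *Aldh6a1* belongs, had 12 of 27 measured genes higher in dKO cells, 0 lower and 15 that did not pass (median log2 fold change 0.18, against 0.0057 over all genes). At an unadjusted p under 0.05, 1 gene was lower, and by Student's t-test 0 were. The 3 with the smallest p were *Acaa2*, for a thiolase (0.84, adjusted p = 5.1e-06), *Acadsb*, for an acyl-CoA dehydrogenase (0.79, adjusted p = 1.2e-05), and *Bckdhb*, for a subunit of the branched-chain ketoacid dehydrogenase (0.55, adjusted p = 2.4e-05). *Hibch* (0.12, adjusted p = 0.25) and *Hibadh* (0.14, adjusted p = 0.093), which act in the steps of valine breakdown before *Aldh6a1*, did not pass.

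In proline, glutamate and ornithine metabolism, 4 of 15 measured genes were higher and 2 were lower (median log2 fold change 0.02). *Oat*, for ornithine aminotransferase, which also yields pyrroline-5-carboxylate, was higher by 0.83 on the log2 scale (adjusted p = 4.7e-06), and *P4ha1*, for a collagen prolyl hydroxylase, by 0.32 (adjusted p = 0.003). *Prodh*, for proline dehydrogenase, which feeds the step of *Aldh4a1*, fell by 0.29 (adjusted p = 0.0018).

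Among 18 genes of lysine, choline and carnitine metabolism, 3 were higher and 2 were lower (median log2 fold change -0.00). *Crat*, for carnitine acetyltransferase, was higher by 0.53 (adjusted p = 2.9e-05). *Cpt1a*, for the carnitine palmitoyltransferase that admits fatty acids to mitochondria, fell by 0.81 (adjusted p = 5.3e-05), and *Chdh*, for choline dehydrogenase, which makes the betaine aldehyde that *Aldh7a1* can oxidize, fell by 0.31 (adjusted p = 0.0012). *Aass*, for the first enzyme of the lysine route that leads to the substrate of *Aldh7a1*, was dim. Its wild-type mean was 4.49 and its dKO mean 4.45 (adjusted p = 0.64), both below the first quartile of the arrays.

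In fatty aldehyde and ether lipid metabolism, 4 of 17 genes were higher and 2 were lower (median log2 fold change 0.05). *Phyh*, for phytanoyl-CoA hydroxylase, was higher by 0.41 (adjusted p = 3.6e-04), and *Cyp4f13*, a cytochrome P450 gene, by 0.33 (adjusted p = 8.5e-04). *Sgpl1* encodes the lyase that cleaves sphingosine-1-phosphate to the aldehyde used by *Aldh3a2*. Its mean was 8.70 on the wild-type and 9.10 on the dKO arrays (log2 fold change 0.40, adjusted p = 3.7e-04), beside 0.37 for *Aldh3a2* itself.

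Of 23 other aldehyde-handling enzymes, 6 were higher and 2 were lower (median log2 fold change 0.10). *Gstm1*, for a glutathione transferase, was higher by 0.43 (adjusted p = 2.1e-04), *Cbr1*, for a carbonyl reductase, by 0.54 (adjusted p = 4.7e-04), and *Gstp1*, for another glutathione transferase, by 0.41 (adjusted p = 0.0017). Of 29 genes of retinoid metabolism and retinoic acid response, 4 were higher and 5 were lower (median log2 fold change -0.03). The retinol dehydrogenase genes *Rdh12* and *Rdh14* were higher by 0.50 (adjusted p = 3.1e-04) and 0.44 (adjusted p = 5.0e-04), and *Adh1*, for an alcohol dehydrogenase that also oxidizes retinol, fell by 0.60 (adjusted p = 6.8e-04).

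**Figure D4:**
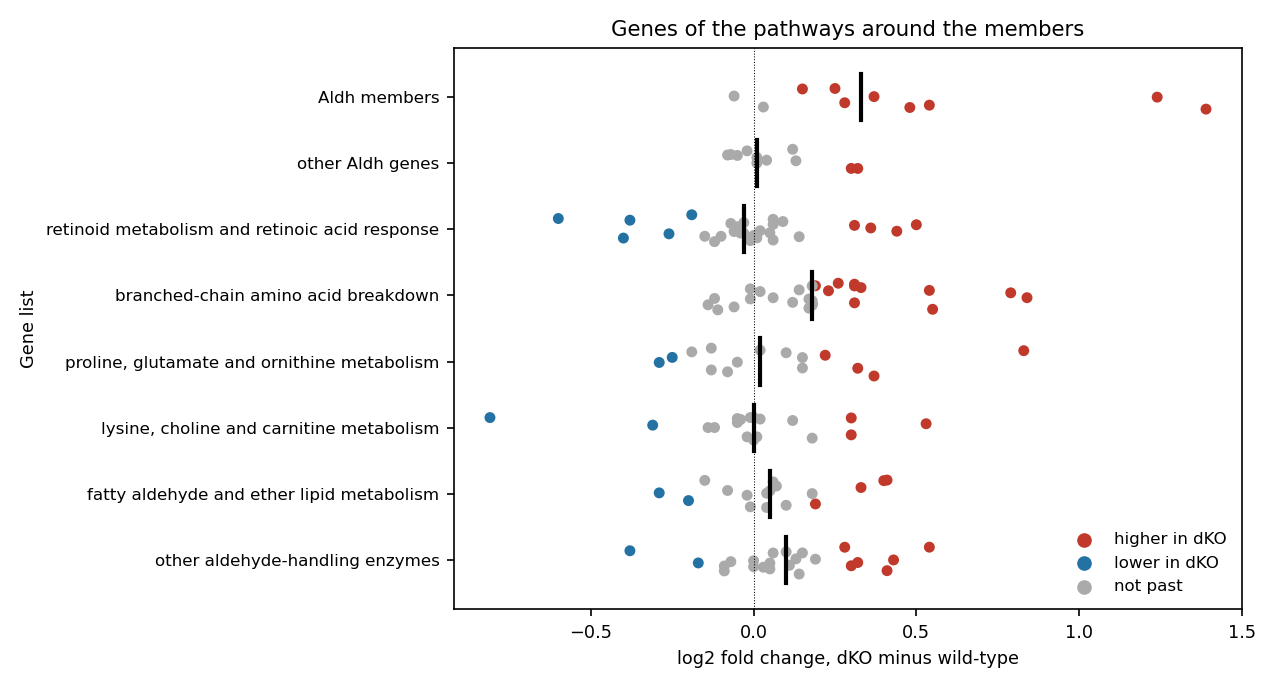
Log2 fold change (dKO minus wild-type, horizontal axis) of each measured gene of 8 lists (rows), red where higher and blue where lower at an adjusted p under 0.05 and grey otherwise, spread vertically only for legibility, with the list median as a black bar. Medians are 0.33 for the members, 0.18 for branched-chain amino acid breakdown and between -0.03 and 0.10 for the rest.

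The genes whose 6 array values were most like those of *Aldh7a1*, the member with the largest rise, were *Cmtr2*, an mRNA cap methyltransferase gene (Pearson r = 0.9994 over 6 arrays), *Stab2*, a scavenger receptor gene (0.9992), and *Map2*, a gene for a microtubule-associated protein (0.9992). With 3 arrays per genotype any gene with a clear step between genotypes has a high r. The size of the rise differed, at log2 fold changes of 0.36 for *Cmtr2*, 2.21 for *Stab2* and 2.33 for *Map2*, beside 1.39 for *Aldh7a1*.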

How the data were processed

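RNA of sorted thymocytes was measured on Mouse Gene 1.0 ST arrays (Affymetrix) per the methods; the series text gives the Exon 1.0 ST array instead. The authors worked in Partek. RMA is listed in the submitters' processing notes, with no version. Deposited values are therefore log2 intensities, quantile normalized between arrays, which hides a shift shared by most genes. Apart from that step, changes of dim genes are compressed in array intensities. All 6 columns were used.

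Of 25254 rows, 21496 had 1 gene symbol. Symbols were updated by Entrez identifier with RefSeq names (GRCm38.p6), and the brightest row per gene was kept, which left 19752 genes. limma 3.58.1 in R 4.3.3 was fitted to the deposited values with genotype as the only term and Benjamini-Hochberg adjustment over all genes at 0.05, and was tested on simulated data first. No set test was run. Precision is limited by the number of arrays.

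Members and gene lists were chosen with earlier results of these data known. Named genes are the members, the other *Aldh* genes, the targeted genes, up to 3 genes per list with the smallest p past the threshold, and the 3 genes most like *Aldh7a1*. *Hibch*, *Hibadh*, *Aass*, *Lyz2*, *Cd74*, *Cd3e*, *Cd4*, *Thy1*, *Cd5*, *Itgam*, *Cd68*, *Cd79b*, *Pecam1*, *Ccl25*, *Epcam*, the motifs and the flanking genes were named after values had been seen. Marker lists of B cells (1 of 7 lower), thymic epithelium and stroma (1 higher and 2 lower of 12) and erythroid cells (0 of 4 called by limma, and 0 lower at an unadjusted p under 0.05) were also examined. Alternatives were 2 renormalizations, the brightest 75% or 50% of genes, other handling of rows, a trended robust variance, Student's t-test, a replicate block and each array left out. Plots used matplotlib 3.10.9 (Python 3.11.15).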

Additional observations from a re-analysis of the deposited data

How the results depend on the processing

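The number of members called higher was 8, and it was 7 after quantile normalization again, after cyclic loess normalization and with a replicate block, 6 with Student's t-test, and 7 to 8 with 1 array left out. *Aldh18a1* was the member lost in each case, at adjusted p = 0.077, 0.11, 0.059 and 0.065 in that order, and Student's t-test also lost *Aldh2* (0.11). The other 6 called members passed in all 15 alternatives, with a highest adjusted p of 0.045, for *Aldh4a1* with Student's t-test. Of the other *Aldh* genes, 1 was called in place of 2 with the brightest 50% of genes, where *Aldh5a1* is not tested, and 1 with Student's t-test, which lost *Aldh3b3* (adjusted p = 0.079). Branched-chain amino acid breakdown had 6 genes called with Student's t-test in place of 12, and 10 to 14 with 1 array left out. It had 11 higher and 1 lower after quantile normalization again, and 10 higher and 1 lower after cyclic loess normalization. With the brightest 50% of genes it had 17 higher and 0 lower. Over all genes, Student's t-test called 2565 (1392 higher and 1173 lower) in place of 4563, and cyclic loess normalization turned the balance to 2222 higher and 2328 lower. The causes were not tested.

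With 1 array left out, log2 fold changes near 0 changed sign: *Aldh1a1* ranged from -0.0051 to 0.08, *Aldh1a2* from -0.06 to 0.0075, *Aldh1a3* from -0.03 to 0.07 and *Aldh1l1* from -0.07 to 0.09. Same-numbered arrays of the genotypes had correlations of their deviations of 0.099, 0.024 and 0.07. Deviations were taken from the mean of only 3 arrays per genotype, so the size of these values cannot decide on pairing. The numbers come from the sample titles and were not taken as pairing the samples. With the replicate block 4544 genes were called in place of 4563, and each of the 3 wild-type arrays correlated best with the dKO array of its own number, a hint from the data and not from the design.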

Other observations

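The nearest measured protein-coding genes along the chromosome, 2 on each side of every member, were taken in the order of the RefSeq table. Of these 40 flanking genes, 7 were higher, 5 were lower and 28 did not pass the test (limma, adjusted over all genes), shares near those over all genes (2587 higher and 1976 lower of 19752). The 40 include *Aldh3b3*, counted as higher, and *Aldh1a7* and *Aldh3a1*, which did not pass, all described above as family genes. At *Aldh7a1* the flanking genes on one side, *Gramd3* and *Zfp608*, had log2 fold changes of -1.64 (adjusted p = 3.0e-05) and -0.77 (adjusted p = 8.8e-06), opposite to the rise of 1.39 of *Aldh7a1*, while *Phax* (0.16, adjusted p = 0.072) and *Tex43* (0.09, adjusted p = 0.3) on the other side did not pass. Next to *Aldh3b1*, *Ndufs8*, for a subunit of respiratory complex I, was at 0.32 (adjusted p = 0.0049) and *Unc93b1*, which encodes a trafficking factor of Toll-like receptors, at -0.22 (adjusted p = 0.015). One gene further on each side, *Tcirg1* was at -0.16 (adjusted p = 0.023) and *Aldh3b3* at 0.32 (adjusted p = 0.0055). *Mgst3*, a glutathione transferase gene beside *Aldh9a1*, was higher by 0.56 (adjusted p = 0.0028), *Usp22*, for a ubiquitin hydrolase near *Aldh3a2*, by 0.53 (adjusted p = 3.3e-05), and *Pdlim1*, beside *Aldh18a1*, was lower, at -0.88 (adjusted p = 1.8e-06). None of the 4 flanking genes of *Aldh6a1* passed the test. *Acad10*, an acyl-CoA dehydrogenase gene near *Aldh2*, was at 0.32 (adjusted p = 0.0013).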
